A study of Homo sapiens with 18 samples.

Results

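The comparison described here set MJC13 against flutamide, both given without androgen, in LNCaP, an androgen-responsive human prostate cancer line. Its members were the 3 arrays titled MJC13 and the 3 titled Flutamide, 6 of the 18 arrays of the series, chosen by title alone. MJC13 cells received 30 µM MJC13 and flutamide cells received 1 µM flutamide, both for 24 h in charcoal-stripped serum, which is depleted of steroids. The vehicle arrays were DMSO-treated cells kept in the same serum for the same time. A further pair of groups of 3 arrays had DHT (dihydrotestosterone, the high-affinity androgen) together with MJC13 or with flutamide. The last group of 3 arrays had DHT alone, and all groups with DHT were treated for 24 h. DHT was at 10 nM per the sample labels, which is not the concentration in the study's methods. Each antagonist was given at 1 dose, and the 2 doses differ, so a difference between the groups is one between these treatments and not between equal amounts of compound. All arrays come from 1 cell line, and neither the labels nor the methods say whether a replicate is a separate culture, so p-values measure only the spread between these arrays.

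Androgens such as DHT drive the growth of most prostate cancers and switch genes such as the kallikreins on and others off, in part through DNA sequences called androgen response elements (AREs). Antiandrogens block this response, and flutamide is a classic nonsteroidal one, used in the clinic for prostate cancer. MJC13 was described as an antagonist of another kind, so its basal expression profile was set against that of flutamide. The comparison asks whether the 2 antagonists leave different basal gene expression when no hormone is added.

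KLK3 and KLK2, the kallikrein genes most used as readouts of androgen response, are shown with their promoters because both are tested below and both hold an ARE-like match. Each window is 300 bases around the gene start (RefSeq, GRCh38.p14), with the match in capitals.
KLK3, chr19:50854665-50854964, plus strand: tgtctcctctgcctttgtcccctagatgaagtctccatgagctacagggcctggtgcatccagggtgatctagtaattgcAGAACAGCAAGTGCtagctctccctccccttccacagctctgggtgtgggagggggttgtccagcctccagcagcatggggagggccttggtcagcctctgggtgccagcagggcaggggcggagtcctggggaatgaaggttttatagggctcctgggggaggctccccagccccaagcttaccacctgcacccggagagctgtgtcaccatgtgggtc
KLK2, chr19:50873189-50873488, plus strand: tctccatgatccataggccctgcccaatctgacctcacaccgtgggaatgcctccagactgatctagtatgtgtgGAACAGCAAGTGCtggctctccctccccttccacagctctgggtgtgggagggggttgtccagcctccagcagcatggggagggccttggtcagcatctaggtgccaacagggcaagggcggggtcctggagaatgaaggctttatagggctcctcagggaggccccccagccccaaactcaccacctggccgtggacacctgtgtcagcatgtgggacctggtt
The loose ARE was searched on both strands as GNACA, any 4 bases and GTNC, where N is any base, and 769 of 35116 promoter windows (2.19%) hold it. In both genes the match reads GAACAGCAAGTGC, and the capitals in KLK3 also hold the half-site AGAACA, which is found in 14.8% of windows. A match describes letters in the window and not binding by any factor, which the arrays do not measure.

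No probe separated MJC13 from flutamide after adjustment for the number of probes tested. Of 28334 probes tested with limma, 0 (0%) had an adjusted p under 0.05, and the lowest adjusted p was 0.914. At an unadjusted p under 0.05 there were 1479 probes (5.22%), of which 721 (2.54%) had the higher mean with MJC13 and 758 (2.68%) the lower. With the title number as a block, again 0 probes passed, 2131 (7.52%) had an unadjusted p under 0.05, and the lowest adjusted p was 0.55. These counts do not show that the compounds act alike. The 95% interval of the difference lay within 2-fold in either direction for 24687 probes (87.1%). Such an interval bounds the measured difference 1 probe at a time, without adjustment for the number of probes. Over all probes the median half-width of the interval was 0.49 on the log2 scale.

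The array Flutamide 2 stood apart. Its mean Pearson r with the other arrays was 0.965 across probes, against 0.976 to 0.983 for each of the rest. Of its 28334 tested probes, 1060 lay at least 2-fold from both other flutamide arrays. The same count, taken within each group, was 35 to 585 for the other arrays, with 585 for DMSO 3 and 506 for Flutamide 3. The median SD within a group was 0.23 for MJC13, 0.31 for flutamide and 0.26 for DMSO. For Flutamide 1 and 3 alone it was 0.21, but a median SD over 2 arrays tends to be lower than one over 3. That value therefore does not compare with the others. Without Flutamide 2, 0 probes passed in limma, 993 (3.5%) had an unadjusted p under 0.05 and the lowest adjusted p was 1.00. With the block and without this array, 0 passed and 1308 (4.62%) had an unadjusted p under 0.05. Of 12 luminal prostate markers 10 were tested, 5 with the higher mean with MJC13 and 5 with the lower, with differences from -0.35 to 0.59 and a median of 0.0037 (-0.12 without Flutamide 2). Among them ACP3 (prostatic acid phosphatase) averaged 12.96 with MJC13 and 12.91 with flutamide, while the basal markers KRT5, KRT14 and KRT15 were all below the filter on dim probes. Of the markers of other cell types, 2 neuroendocrine, 5 stromal and 3 immune or endothelial genes were tested. The score of a list, the mean over its genes of the difference from the DMSO mean, ran from -0.088 to -0.022 with MJC13 and from -0.32 to 0.29 with flutamide for the luminal genes. It ran from -0.14 to -0.066 with MJC13 and from -0.45 to 0.35 with flutamide for the neuroendocrine genes. It ran from -0.018 to 0.21 with MJC13 and from -0.061 to 0.078 with flutamide for the stromal genes, and from -0.29 to 0.043 with MJC13 and from -0.20 to 0.20 with flutamide for the immune and endothelial genes. The groups overlapped in each of these scores, and their part in the results was not tested.

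Androgen-induced genes sat slightly lower with MJC13, without any of them passing the test. Of 41 tested genes of the list (48 listed), 14 had the higher mean with MJC13 and 27 the lower, beside 50.5% higher over all probes, and the median difference was -0.08, beside 0.00 over all probes. No gene of the list was called in either direction. The medians of the same-numbered differences were -0.01, 0.09 and -0.10. Without Flutamide 2 the count was 18 higher and the median -0.13, and without Flutamide 3 the median was 0.02, so that leaving out 1 array turned its sign. The intervals of 33 of the 41 genes lay within 2-fold. Against DMSO the list had a median of -0.03 with MJC13 and -0.0017 with flutamide.

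KLK3, which encodes prostate-specific antigen, had values of 6.66, 6.63 and 6.88 with MJC13, 6.33, 6.28 and 7.87 with flutamide and 7.25, 6.58 and 8.45 with DMSO. The groups overlapped: in arrays numbered 1 and 2 MJC13 was above flutamide by 0.33 and 0.35, and in arrays numbered 3 it was below by 0.99 (a difference of -0.99). The mean difference was -0.10 with an SE of 0.52, a 95% interval of -1.19 to 0.98, and the interval does not bound this gene within 2-fold. It was -0.38 without Flutamide 2 and 0.42 without Flutamide 3. Most of the MJC13 and flutamide values of KLK3 lay near the filter value of 6.31, among dim signals.

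KLK2, the neighboring kallikrein with the same ARE match, had values of 6.57, 6.93 and 6.93 with MJC13, 7.15, 7.28 and 6.90 with flutamide and 6.60, 6.71 and 6.86 with DMSO. Its lowest flutamide value lay just below the upper MJC13 values, and the difference was -0.30 with an interval of -0.88 to 0.29. These signals were dim as well. For scale, DHT alone raised KLK2 by 2.23 over DMSO on the same scale (limma, adjusted p = 0.0018), in a comparison that called 54 probes (0.191%).

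TMPRSS2, a membrane serine protease whose promoter is the androgen-responsive part of the common ETS fusions, was bright enough to compare. Its values were 10.91, 10.34 and 11.08 with MJC13, 11.09, 10.56 and 11.73 with flutamide and 11.04, 10.62 and 11.73 with DMSO. MJC13 was below flutamide in each same-numbered pair, with differences of -0.18, -0.22 and -0.66, although the groups overlapped, with array number 2 the lowest of each group. The mean difference was -0.35 with an SE of 0.34 (interval -1.06 to 0.36), and the SE was 0.19 with the block, where the adjusted p from limma was 0.70. Without Flutamide 2 the difference was -0.64, but this leaves MJC13 2, the lowest MJC13 array, without its flutamide counterpart. FKBP5, an androgen-induced immunophilin, averaged 11.42 ± 0.29 with MJC13 and 11.57 ± 0.10 with flutamide (SD, n = 3 each), a difference of -0.15 with an interval of -0.65 to 0.35.

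**Figure D1:**
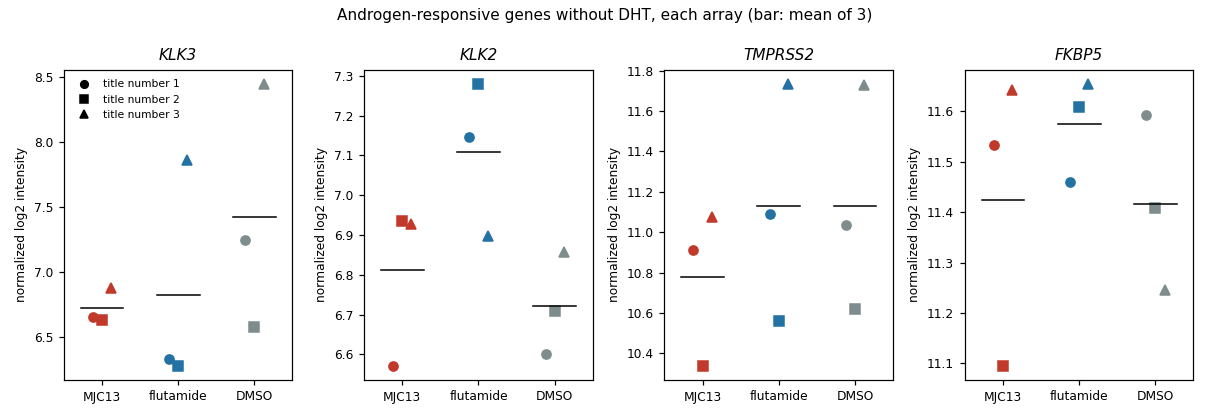
Normalized log2 intensity of KLK3, KLK2, TMPRSS2 and FKBP5 (a panel each, with its own vertical axis) in the 3 MJC13, 3 flutamide and 3 DMSO arrays without DHT, with marker shape for the title number and a bar for the group mean. The MJC13 and flutamide arrays overlap in every panel, and array number 2 of TMPRSS2 is the lowest of its group in all 3 groups, at 10.34 with MJC13, 10.56 with flutamide and 10.62 with DMSO.

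Among the remaining androgen-induced genes, 1 lay entirely below flutamide with MJC13 and 1 entirely above, beside 4.33% and 4.1% of all probes tested. ALDH1A3, which makes retinoic acid, had 11.11, 10.94 and 11.40 with MJC13, 11.45, 11.48 and 11.59 with flutamide and 11.58, 11.30 and 11.49 with DMSO. Its difference was -0.36, the lowest of the list, with an interval of -0.88 to 0.17, and it was -0.37 without Flutamide 2. GNMT, the glycine N-methyltransferase that uses up S-adenosylmethionine, was the gene whose MJC13 arrays all lay above the flutamide arrays. GNMT had 7.89, 8.01 and 7.82 with MJC13 and 7.30, 7.18 and 7.53 with flutamide, a difference of 0.57 with an interval of 0.05 to 1.09 before adjustment. MAF, a basic leucine zipper transcription factor, had a difference of 0.36 (interval -0.03 to 0.74) and WDR76, a WD-repeat protein, one of 0.36 (interval -0.15 to 0.86). KRT19, a simple-epithelial keratin, had a difference of 0.42 (interval -0.19 to 1.04). ORM1 and ORM2, the acute-phase orosomucoids, PGC, the aspartic protease progastricsin, and TRPM8, a cold-sensing ion channel, all had group means between 6.05 and 6.41 in both antagonist groups, close to the lowest signals on the arrays. Their differences ran only from -0.18 for the lower of the TRPM8 probes to 0.04 for ORM1 and PGC.

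The 18 tested androgen-repressed genes split into 10 with the higher mean with MJC13 and 8 with the lower, with a median of 0.02. CAMK2N1, an inhibitor of CaM kinase II, averaged 14.57 ± 0.17 with MJC13 and 14.45 ± 0.13 with flutamide (SD, n = 3 each). CCN3, a secreted matricellular protein, had the largest difference of the list at 0.45, with an interval of -0.58 to 1.49.

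Flutamide has been described as a ligand of the aryl hydrocarbon receptor (AhR), a xenobiotic sensor, and its targets were therefore listed. Of 8 tested targets 5 had the higher mean with MJC13 and 3 the lower, with a median of 0.02, and none was called. CYP1A1, the classic AhR-induced monooxygenase, had 5.98, 6.76 and 6.07 with MJC13, 6.79, 6.70 and 6.72 with flutamide and 6.43, 6.46 and 6.34 with DMSO. MJC13 1 and 3 were below every flutamide array and also below the filter value of 6.31, and MJC13 2 was among the flutamide values. The difference was -0.47 with an interval of -1.33 to 0.39. TIPARP, which restrains AhR by ADP-ribosylation, had a difference in the other direction, 0.27 (interval -0.20 to 0.74), and it was bright, with means of 10.29 with MJC13 and 10.02 with flutamide. CYP1B1 had a difference of 0.16, and the 2 probes of NQO1 had 0.03 and 0.13. AHRR, the AhR repressor, and ALDH3A1 were below the filter. Among genes of the AhR complex, the partner ARNT2 averaged 9.82 with MJC13 and 9.46 with flutamide, a difference of 0.36 with an interval of -0.32 to 1.03.

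Single genes of the HSP90 chaperone machinery and of transcriptional coactivators did not pass the test either. FKBP4, which encodes the immunophilin FKBP52 that binds HSP90, had 11.79, 11.43 and 12.13 with MJC13 and 11.63, 12.11 and 12.27 with flutamide. The groups overlapped, and the difference was -0.22 (interval -0.70 to 0.27). HSP90AA1, the inducible HSP90, had 3 probes that did not point one way: the brightest had a difference of 0.27 with all 3 MJC13 arrays above the flutamide arrays, the next had -0.29 with all 3 below, and the dimmest had 0.27. STUB1, the ubiquitin ligase that marks HSP90 clients for degradation, had differences of 0.35 and 0.67 at its 2 probes, and the second was 0.22 without Flutamide 2.

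NCOA2, the p160 coactivator SRC2, averaged 8.51 ± 0.21 with MJC13 and 8.28 ± 0.47 with flutamide, and CTNNB1, which encodes beta-catenin, had differences of 0.23, 0.18 and -0.19 at its 3 probes. FOXA1, a pioneer factor that opens chromatin in luminal cells, had 14.10, 14.15 and 14.10 with MJC13 and 14.47, 14.32 and 14.15 with flutamide. These values did not overlap, yet the difference was only -0.20, with an interval of -0.52 to 0.13. PRMT1, an arginine methyltransferase and coactivator, had 12.25, 11.45 and 10.996 with MJC13 and 10.90, 11.21 and 11.13 with flutamide, so that its difference of 0.49 came mainly from the array MJC13 1. NR3C1, the glucocorticoid receptor, was below flutamide without overlap at both of its probes. Its brighter probe had 6.63, 7.01 and 6.88 with MJC13 and 7.01, 7.96 and 7.32 with flutamide. The difference was -0.59 at this probe and -0.53 at the other, and the first was -0.33 without Flutamide 2.

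Among lists with at least 10 tested genes, the 2 of cell cycle genes had the lowest medians. Of 31 tested DNA replication genes 7 had the higher mean with MJC13 and 24 the lower, with a median of -0.17, and of 23 tested mitosis genes 3 had the higher and 20 the lower, with a median of -0.18, beside 49.5% lower and a median of 0.00 over all probes. No gene of either list was called, with or without the block. The scores of the arrays showed how they were arranged. For mitosis the score was -0.02, -0.78 and 0.35 with MJC13, 0.11, -0.48 and 0.45 with flutamide and 0.08, -0.51 and 0.43 with DMSO, for numbers 1, 2 and 3. Array number 2 was the lowest and number 3 the highest of every group, and at each number MJC13 was below both flutamide and DMSO. For DNA replication the scores were -0.10, -0.47 and 0.10 with MJC13, 0.03, -0.13 and 0.20 with flutamide and 0.05, -0.22 and 0.17 with DMSO, in the same arrangement.

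The mean scores differed by -0.19 for DNA replication, with SDs of 0.29 with MJC13 and 0.17 with flutamide, and by -0.18 for mitosis, with SDs of 0.58 with MJC13 and 0.47 with flutamide (n = 3 each). Leaving out 1 array moved the list medians. For mitosis the median was -0.42 without Flutamide 2, 0.15 without MJC13 2 and 0.05 without Flutamide 3. For DNA replication it was -0.31 without Flutamide 2 and -0.03 without MJC13 2. With the title number as a block and without Flutamide 2 the medians were -0.13 for mitosis and -0.12 for DNA replication, and with the number of the sample description as a block they were -0.018 for mitosis and -0.068 for DNA replication. The medians of the same-numbered differences were -0.10, -0.39 and -0.12 for mitosis and -0.20, -0.32 and -0.09 for DNA replication. The intervals of the mitosis genes were wide, and 6 of 23 lay within 2-fold. In the arrays with DHT, which this comparison does not use, 2 of the mitosis genes had the higher mean with MJC13 and 21 the lower (median -0.12), and 7 of the DNA replication genes the higher and 24 the lower (median -0.08). Not every list kept its direction with DHT. Higher and lower counts there were 20 and 21 for androgen-induced genes and 12 and 15 for ATF4 targets. Hypoxia and glycolysis genes went from 5 and 13 to 11 and 7, and beta-catenin targets from 9 and 4 to 2 and 11. Counts with DHT were 9 and 7 for NRF2 targets and 11 and 6 for the unfolded protein response.

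**Figure D2:**
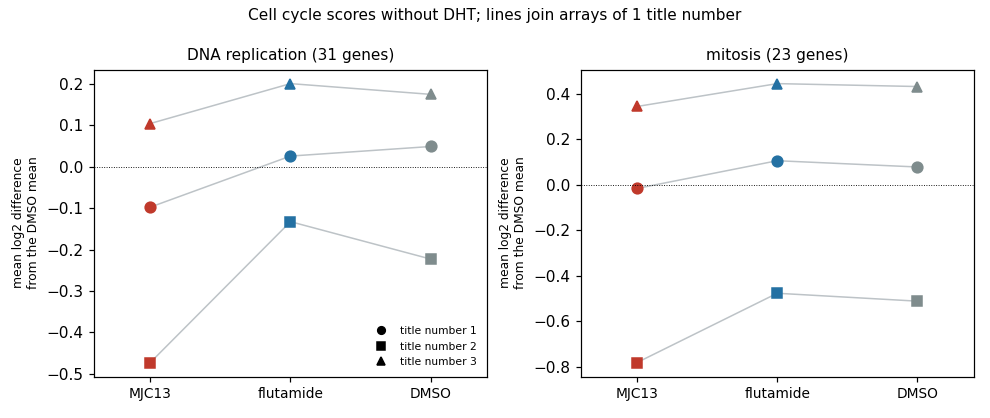
Score of each array without DHT for the 31 DNA replication and 23 mitosis genes (vertical axis, mean log2 difference from the DMSO mean), for MJC13, flutamide and DMSO, with lines joining arrays of 1 title number. Number 2 is lowest and number 3 highest in each group, and MJC13 lies below flutamide and DMSO at each number. The widest gap is at number 2 for DNA replication, -0.47 with MJC13 and -0.13 with flutamide.

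E2F1, the transcription factor that turns on S-phase genes, had 7.24, 7.95 and 8.27 with MJC13 and 8.28, 8.52 and 8.77 with flutamide. These groups did not overlap, the same-numbered differences were -1.03, -0.57 and -0.50, and the mean difference was -0.70 (interval -1.29 to -0.12), with an adjusted p of 0.91 in limma and 0.58 with the block. CDC45, a subunit of the replicative helicase, had 10.35, 10.06 and 10.81 with MJC13 and 11.01, 11.06 and 11.04 with flutamide. Here too the groups did not overlap, and the difference was -0.63 (interval -1.34 to 0.08). GINS2, another helicase subunit, had a difference of -0.57 (interval -1.23 to 0.09), with the array MJC13 3 at 11.37 just above Flutamide 1 at 11.36. BUB1B, a spindle checkpoint kinase, had 8.46, 8.56 and 9.58 with MJC13 and 9.44, 9.03 and 9.85 with flutamide, which overlapped, although the same-numbered differences of -0.98, -0.47 and -0.27 had 1 sign. CDC20, the activator of the anaphase-promoting complex, had a difference of -0.29 that was 0.01 without MJC13 2.

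The lists of NRF2 targets, ATF4 targets and the unfolded protein response had more genes with the higher mean with MJC13. Of 16 tested NRF2 targets 12 had the higher mean with MJC13 (median 0.11, and 13 higher without Flutamide 2), of 27 ATF4 targets 20 did (median 0.08, and 15 without Flutamide 2), and of 17 genes of the unfolded protein response 12 did (median 0.07, and 11 without Flutamide 2). None of these genes was called. ATF3, a stress-induced transcription factor, had 10.58, 10.40 and 10.65 with MJC13 and 9.89, 10.25 and 10.35 with flutamide, and DMSO arrays at 10.23, 10.13 and 10.59. The MJC13 and flutamide arrays did not overlap, the difference was 0.38 (interval 0.01 to 0.75), and both the lowest and the highest DMSO array lay inside the range of the antagonists. SLC7A11, the cystine importer, had a difference of 0.46 (interval -0.03 to 0.95), FTL, ferritin light chain, had 0.39 and 0.33 at its 2 probes, and MANF, a secreted factor of the endoplasmic reticulum, had 0.32. XBP1, whose splicing starts part of the unfolded protein response, had 0.36 and 0.22. PPP1R15A, an ATF4 target that restarts translation after stress, lay below flutamide without overlap, with a difference of -0.27 (-0.11 without Flutamide 2). Of 15 tested heat shock genes 10 had the higher mean with MJC13 (median 0.07), and 7 without Flutamide 2 (median -0.0067). Among them HSPH1, a co-chaperone of HSP70, had a difference of 0.28. The chaperones HSPA8 and HSPD1 lay below flutamide without overlap, at -0.08 and -0.22, and 1 heat shock gene, HSP90AA1, lay above it. Over all probes tested these shares were 4.33% and 4.1%. All of these probes had group means above 8. Other probes of HSPD1 had differences of 0.06, -0.21 and -0.03, all with overlap, and the last of these was dim.

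Of 18 tested hypoxia and glycolysis genes 13 had the lower mean with MJC13 (median -0.06, and 8 higher with a median of -0.015 without Flutamide 2), and the 2 lowest were the kinases PFKFB3 and PFKFB4, which set the level of the main activator of glycolysis. PFKFB4 had 10.13, 10.57 and 10.36 with MJC13 and 10.81, 11.15 and 10.64 with flutamide, without overlap, a difference of -0.51 (interval -0.95 to -0.07). The brighter PFKFB3 probe had a difference of -0.36, also without overlap, and the other -0.29. Of 16 tested p53 targets 11 had the higher mean with MJC13 and 5 the lower. Their differences ran from -0.56 to 0.56, with a median of 0.10 (0.026 without Flutamide 2). MDM2, the ligase that restrains p53, had 7.74, 7.51 and 7.98 with MJC13 and 7.30, 7.004 and 7.23 with flutamide at 1 probe, a difference of 0.56, and -0.21 at a dimmer one. The immediate early gene IER2 had a difference of -0.49 and the chemokine CXCL1 one of -0.61, both without overlap, with CXCL1 close to the filter value in the MJC13 arrays. Each was the lowest of its list. The immediate early genes split into 9 higher and 9 lower, and the NF-kappaB targets, with CXCL1, into 2 and 5. The other lists, of beta-catenin targets, PXR and CAR targets, lipid synthesis, oxidative phosphorylation, metallothioneins, ribosome biogenesis, interferon response and steroid targets shared with the glucocorticoid receptor, had medians between -0.08 and 0.14 and no called gene. The highest of these, of beta-catenin targets, was 0.037 without Flutamide 2, and that of metallothioneins was -0.12 without Flutamide 2 and 0.28 without Flutamide 3. Of 29 list medians, 13 moved by less than their spread over the title numbers under every alternative.

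**Figure D3:**
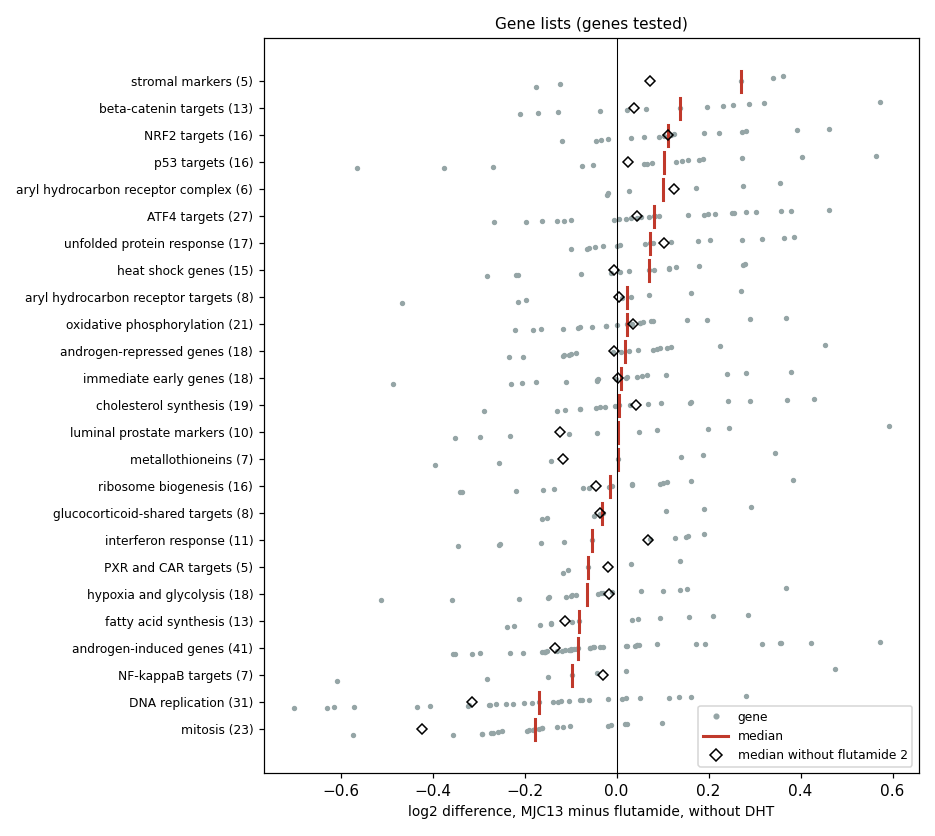
Difference between MJC13 and flutamide without DHT (horizontal axis, log2) for each tested gene of the shown lists, each with at least 5 tested genes (rows, with the number of genes), with the median as a red bar and the median without the array Flutamide 2 as an open diamond. DNA replication and mitosis have the lowest medians, -0.17 and -0.18, and go further down without Flutamide 2, to -0.31 and -0.42.

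Without a called probe, the largest separations were read from probes whose 3 MJC13 arrays lay entirely above or entirely below the 3 flutamide arrays. There were 1162 such probes above (4.1%) and 1228 below (4.33%), 2390 in all (8.44%), and with 3 arrays against 3 the smallest two-sided exact permutation p is 0.1, so none of them passes a test alone. The same share, 0.1, of probes would lie without overlap if the labels of the arrays were exchangeable, so 8.44% is not an excess. Differences were small in size. Over all probes, 19 had a mean difference of at least 2-fold, 7 above and 12 below, and in 11 of these the array Flutamide 2 was the lowest or the highest of the 6. Against Flutamide 1 and 3 only, 2367 probes lay entirely above (8.35%) and 2335 entirely below (8.24%), counts that fewer arrays raise by construction. With the weaker demand of 1 sign in all 3 same-numbered pairs, 3511 probes were higher (12.4%) and 3600 lower (12.7%). The genes in the next paragraphs were chosen for their size among the probes without overlap, so their differences are a description.

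PKP3, a plakophilin of the desmosome plaque, had the largest difference of these. Its values were 7.10, 6.93 and 6.53 with MJC13, 8.58, 8.004 and 7.64 with flutamide and 7.37, 7.36 and 6.78 with DMSO, so that flutamide stood above both other groups. The difference was -1.22 with an SE of 0.24 (0.43-fold, adjusted p = 0.91 in limma), and it was -1.25 without Flutamide 2. A second PKP3 probe went the other way, with a difference of 0.60. JPH2, a junctophilin that ties the endoplasmic reticulum to the plasma membrane, had 8.51, 8.88 and 9.24 with MJC13, 9.57, 9.84 and 10.06 with flutamide and 9.06, 8.82 and 9.24 with DMSO. It had the lowest p of all probes in the fit with the block, where its same-numbered differences were -1.06, -0.96 and -0.82, and its adjusted p there was 0.55. Its second, dimmer probe had a difference of -0.03.

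ATP2A3, a calcium pump of the endoplasmic reticulum, had 6.17, 6.20 and 6.61 with MJC13 and 7.68, 6.97 and 7.45 with flutamide, a difference of -1.04. TSPYL6, a testis-specific protein-like gene, had a difference of -0.93 and DIPK2B one of -0.91. These 3 genes were nearly as low or lower against Flutamide 1 and 3 alone, at -1.24, -0.89 and -0.84. By contrast, MIR124-1HG, a microRNA host gene, had 6.52, 7.04 and 6.82 with MJC13 and 7.09, 9.55 and 7.37 with flutamide, where Flutamide 2 was far above every other array. Its difference of -1.21 was -0.44 without that array, that of LRRC58 was -1.03 with and -0.39 without it, and that of ABCC9, a regulatory subunit of potassium channels, -0.93 with and -0.49 without it. GSDMB, a gasdermin, had -0.95 and, without Flutamide 2, -0.60, with 2 other probes at 0.29 and 0.13. ANXA7, an annexin, had -0.90 at a dim probe and -0.13, again without overlap, at a probe near 13.

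On the higher side, CREBBP, the acetyltransferase CBP and a transcriptional coactivator, had 8.21, 7.79 and 7.81 with MJC13, 7.61, 6.21 and 6.87 with flutamide and 7.61, 7.36 and 7.14 with DMSO. The difference was 1.04 (2.06-fold) and 0.70 without Flutamide 2, while its brighter probe, near 12, had 0.17. NUP58, a nucleoporin, had the largest difference, 1.09, with 8.61, 7.51 and 7.67 with MJC13 and 7.21, 6.42 and 6.90 with flutamide. YJU2, a splicing factor, had 1.05, and its second and brighter probe -0.21. MBD1, which binds methylated CpG sites, had 8.37, 7.70 and 7.97 with MJC13 and 6.83, 7.13 and 7.34 with flutamide. Its difference of 0.92 came with 0.74 at a second probe, also without overlap. QKI, an RNA-binding protein, had 0.97, with 0.28 and -0.17 at 2 other probes, and TOP1MT, the mitochondrial topoisomerase, had 0.90, with 0.20 and 0.0048.

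The remaining 4 were SCAMP2, a carrier membrane protein of the secretory pathway, with a difference of 0.97, PPIB, a cyclophilin of the endoplasmic reticulum, with 0.92, ARIH2OS, an opposite-strand transcript, with 0.91, and TMEM38B, a cation channel of the endoplasmic reticulum, with 0.91 at one probe and 0.09 at a probe near 13. Of all 20 genes, 11 had another tested probe, in 6 every other probe was on the same side, and in 2 (MBD1 and ANXA7) a second probe also did not overlap. In 19 of the 20 the DMSO mean lay between the MJC13 and flutamide means, the exception being YJU2. The choice of genes by the largest gap between the antagonists favors this placement, and its share over other probes was not computed. Since these groups did not overlap, leaving out 1 array could not turn their sign. In 6 of the 20 the difference without Flutamide 2 was at least as large.

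**Figure D4:**
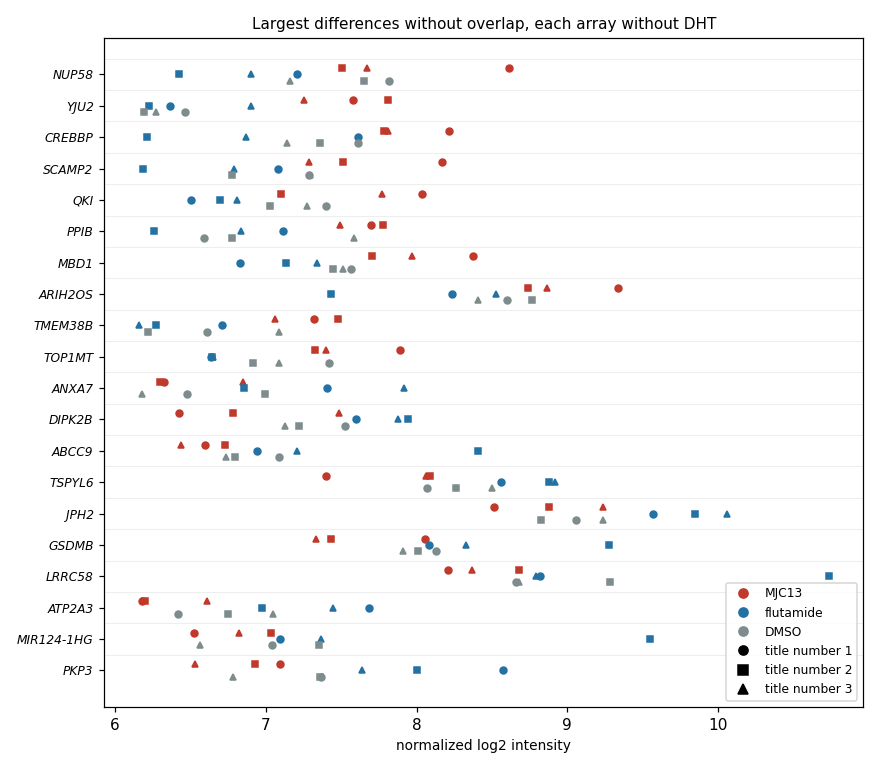
Normalized log2 intensity (horizontal axis) in each MJC13, flutamide and DMSO array without DHT for the 20 genes with the largest differences among probes that do not overlap (rows), with marker shape for the title number. The square at 9.55 in the row of MIR124-1HG is the array Flutamide 2, whereas the flutamide arrays of PKP3 lie at 8.58, 8.004 and 7.64, all above those of MJC13.

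The same pair of antagonists was compared in the presence of DHT on arrays that the comparison without hormone does not use. There 0 of 28334 probes (0%) passed in limma, and 400 (1.41%) had an unadjusted p under 0.05. Probes without overlap numbered 757 above (2.67%) and 711 below (2.51%). The difference between the 2 comparisons was tested directly and also gave 0 probes, with 1266 (4.47%) at an unadjusted p under 0.05 and a lowest adjusted p of 0.90, and with the block again 0, with 1787 (6.31%) and 0.27. Across probes, which are not independent replicates, the differences without and with DHT had a Pearson r of -0.22 and a Spearman rho of -0.22, and 42.0% of probes had the same sign. The description numbers of the samples mostly differed between the antagonists without DHT and all differed with it. Their part in these shares was not tested. Of the 2390 probes without overlap, 860 (36.0%) had the same sign with DHT.

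The 20 genes named above followed this pattern, since 6 of them had the same sign with DHT, 2 of the 10 higher and 4 of the 10 lower. PKP3 had a difference of -1.22 without DHT and 0.10 with it, MBD1 0.92 without and -0.53 with it, NUP58 1.09 without and -0.40 with it, and YJU2 1.05 without and 0.15 with it. A count of 49 probes (0.173%) did not overlap in the same direction in both conditions, and 23 of these carry a gene symbol, 10 above and 13 below. They were chosen after the values of both conditions were seen, and their values are a description. NPAS2, a transcription factor related to CLOCK, was -0.43 without DHT and -0.48 with it. CPXM2, a carboxypeptidase-like protein, was -0.47 and -0.46, and PDE6A, a phosphodiesterase subunit of rod cells, -0.39 and -0.40. All of these were close to the filter value. WNT7B, a secreted WNT ligand, was 0.54 and 0.41 at the probe without overlap, and its brighter probe was 0.51 and 0.14.

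**Figure D5:**
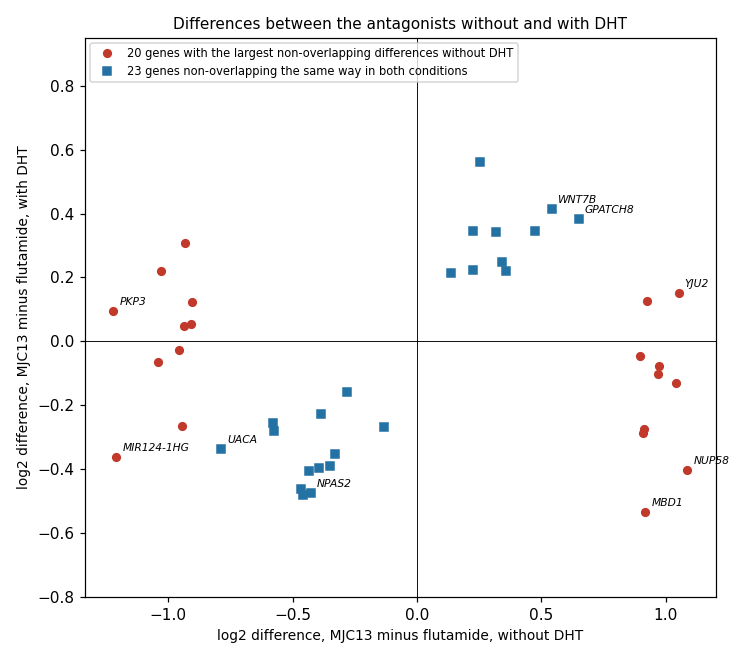
Difference between MJC13 and flutamide without DHT (horizontal axis) and with DHT (vertical axis), both log2, for the 20 genes with the largest non-overlapping differences without DHT (circles) and the 23 genes that did not overlap in the same direction in both conditions (squares, which that choice puts in the lower left and upper right). Of the circles, 6 lie in the quadrants of equal sign, and PKP3 lies at -1.22 without and 0.10 with DHT.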

How the data were processed

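Total RNA was hybridized to Illumina expression arrays. Per the labels and methods, the authors exported signals from GenomeStudio, subtracted background and quantile-normalized them with lumi (versions not given in the sources used here), and deposited log2 values (lowest 5.81, highest 14.82, median 6.60, the same on all arrays). Whether the scale is plain log2 or variance-stabilized is not stated, and the second would shrink differences of dim probes. The 36 columns of intensity before normalization could not be tied to samples and were not used here. The number of arrays limits precision.

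Probes whose mean was at or under 6.31, the 40th percentile of 47223 probe means, were left out, which kept 28334, and 19625 of these carry 1 symbol of the platform annotation, for 14433 genes, checked against RefSeq. A 6-group model of all 18 arrays was fitted in limma 3.58.1 (R 4.3.3; 12 residual degrees of freedom), and a probe was called where its p after Benjamini-Hochberg adjustment was below 0.05. The brightest tested probe stood for a gene in lists. Genes named were the 10 largest differences in each direction without overlap, up to 4 per list by moderated t, and a fixed set of targets. Members and lists were chosen with earlier results of these data known; genes named for a second probe or for both conditions were chosen after their values were seen. Steps were tested on simulated data. Figures used matplotlib 3.10.9 (python 3.11.15). Some results are not reported here.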

Additional observations from a re-analysis of the deposited data

How the results depend on the processing

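The count of probes called without DHT was 0 under all 18 alternative fits in limma and at adjusted p thresholds of 0.01 and 0.1, with 834 to 2859 probes at an unadjusted p under 0.05 (the most without Flutamide 3) and a lowest adjusted p of 0.30, without Flutamide 1. The counts with DHT and for the difference of the comparisons were also 0 under each of their alternatives. Deviations from the group means of same-numbered MJC13 and flutamide arrays correlated at 0.04, 0.09 and 0.29 over all probes, not above 0.1 in every pair, although some lists had scores that went with the number in all groups (metallothioneins 0.64 to 0.70 for number 3 and -0.40 to 0.013 for the others, besides the cell cycle lists), and the replicate block changed no call, with 2131 probes at an unadjusted p under 0.05 as a fixed and 1861 as a random block. Of the 3 numbers, 2 and 3 had their own pair as the best match and 1 did not. The description numbers differ from the title numbers in 11 of 18 arrays, and as a block they also gave 0. They were 3, 3 and 1 for MJC13 1 to 3 and 1, 2 and 2 for Flutamide 1 to 3. With DHT they were 1, 1 and 1 for MJC13 and 2, 3 and 3 for flutamide. Within the pair with DHT, a difference tied to this number cannot be told apart from one between the antagonists. Without DHT the 2 are separated only in part.

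Probes without overlap numbered 2120 above and 2184 below (4304 in all) with no filter, 700 and 757 (1457) with a filter at the 60th percentile, and 3511 and 3600 (7111) when only the same sign in all 3 same-numbered pairs was asked, counts that follow from the probes or pairs admitted. Leaving out 1 array, which was added once the values were known, gave 1859 to 3416 above, 1852 to 3621 below and 3711 to 7037 in all. Leaving out 1 array gave list medians of -0.13 to 0.019 for androgen-induced genes, -0.34 to -0.033 for DNA replication and -0.44 to 0.15 for mitosis.

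Of 112 probes of named genes, 92 had 1 sign under all 18 alternatives, in part by choice, since leaving out 1 array cannot turn a probe named for groups that do not overlap, and the lowest adjusted p of any was 0.40. The sign turned with the description number as a block for KLK3 (0.14), a TRPM8 probe (0.15), PGC (-0.16), an NQO1 probe (-0.20) and a second GSDMB probe (-0.045). It turned without number 2 in every group for FKBP5 (0.030), CYP1B1 (-0.084), the dim NQO1 probe (-0.17), FKBP4 (0.013), a CTNNB1 probe (0.045), and the second probes of YJU2 (0.0081), TOP1MT (-0.062) and JPH2 (0.10). It turned with the replicate block without Flutamide 2 for the dim NQO1 probe (-0.053), TOP1MT (-0.070) and JPH2 (0.12). Leaving out 1 array gave -0.38 to 0.42 for KLK3, -0.26 to 0.013 for FKBP5, -0.035 to 0.15 for PGC, -0.35 to 0.072 for TRPM8, -0.097 to 0.24 and -0.028 to 0.27 for NQO1, -0.44 to 0.0074 and -0.037 to 0.44 for CTNNB1, -0.040 to 0.40 for NCOA2, -0.057 to 0.43 for the dimmest HSP90AA1 probe, and -0.53 to 0.0088 for CDC20. For second probes it gave -0.042 to 0.20 for TMEM38B, -0.0043 to 0.25 for GSDMB, -0.11 to 0.18 for TOP1MT, -0.16 to 0.081 for JPH2, -0.056 to 0.36 for LRRC58 and -0.36 to 0.017 for YJU2. The cause was not tested.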

Other observations

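Some genes had several tested probes, and whether these read the same transcript was not checked. Of 3927 genes with at least 2 tested probes, 427 had a probe that lay above flutamide without overlap and 26 had 2 such probes. In the other direction, 261 had one below and 11 had 2. Over all probes tested, 4.1% lay above and 4.33% below without overlap. The other probes of these genes were on the same side in 399 of 640 cases (62.3%) for the higher ones and in 167 of 357 (46.8%) for the lower ones. Over all probes tested, 50.5% had the higher mean with MJC13 and 49.5% the lower. The share among genes with several probes was not computed, so these shares do not measure agreement between probes. The genes in this section were chosen after their values were seen.

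Among those with 2 probes above was KRT18, the simple-epithelial keratin of luminal cells and the highest of 10 luminal markers that split into 5 higher and 5 lower. Its brighter probe had 9.28, 8.70 and 8.54 with MJC13, 8.01, 8.21 and 8.53 with flutamide and 8.21, 8.43 and 8.38 with DMSO, and the other 8.35, 7.81 and 7.75 with MJC13 against 7.36, 7.11 and 7.46 with flutamide. The differences were 0.59 and 0.66, with the array MJC13 1 highest at both, and with DHT they were -0.09 and -0.31. Others, picked from the 26 genes and not tested as a group, were CASP8, TRADD and TRAF6. The initiator caspase CASP8 had 0.65 and 0.31, and with DHT -0.28 and -0.31. The adaptor TRADD had 0.70 and 0.48 and the ubiquitin ligase TRAF6 0.48 and 0.31. The phosphatase CDC14A had 0.66 and 0.42, with another, dim probe at -0.18, and the actin-associated protein PDLIM5 had 0.74 and 0.59, with another probe at 0.44.

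Among those with 2 probes below, besides NR3C1 and ANXA7, was ITGB2, the beta-2 integrin of leukocytes, with 9.40, 9.42 and 9.42 with MJC13, 9.89, 10.05 and 9.86 with flutamide and 9.84, 10.19 and 9.41 with DMSO at its brighter probe. The difference there was -0.52 and at the other probe -0.37. FCGR3B, an Fc receptor with a nearly identical neighbor that the probes may also read, had -0.77 at both probes. None of the genes in this section passed the adjusted test.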
